A study of Mus musculus with 6 samples.

Results

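Integrins and laminins were followed on 6 arrays of mouse mammary material. The members were all genes whose platform symbol follows the Itga, Itgb or Lama, Lamb and Lamc pattern and that had a probe set naming them alone, which gave 35 of the 22180 genes measured: 17 integrin alpha chains, 8 integrin beta chains and 10 laminin chains. Itga10 had no such probe set and was not analysed here. The first group held 3 mammary tumors (23, 24 and 25) from females with the genotype Trp53L/L;Brca1L/L, collected several months after Ad-K8-Cre, an adenovirus in which the keratin 8 promoter drives Cre recombinase, had been given through the milk ducts. They were set against 3 samples (replicates 1, 2 and 4) of luminal epithelium from wild-type Rosa26-Stop-YFP females, sorted for YFP 10 to 14 days after the same virus. Both groups received the virus, and the labels call the tumors null for the tumor suppressors Trp53 and Brca1. The labels give no age, and they mention a sort for the wild-type cells but none for the tumors, so genotype, malignancy, time after virus and sorting cannot be told apart. The wild-type samples came from different mice, while for the tumors the labels give a number each but not whether each had its own mouse, so p-values may in part measure spread between samples of 1 animal.

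Integrins are receptors made of 1 alpha and 1 beta chain that bind cells to the matrix or to other cells. Most alpha chains pair with Itgb1, whereas Itgav pairs with several beta chains, Itga6 also pairs with Itgb4 in hemidesmosomes, and Itgal, Itgam, Itgax and Itgad pair with Itgb2 on leukocytes. Laminins are trimers of an alpha, a beta and a gamma chain and form the sheet of the basement membrane under the mammary ducts. In the mammary gland, the attachment of luminal and myoepithelial cells to laminin through integrins is known to be needed for tissue polarity and milk production.

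Promoters are shown for 2 sets of partners whose arrays did not overlap between the groups: Itgav with its beta chains Itgb5, Itgb6 (both starts) and Itgb8, and the leukocyte chains Itgam and Itgax, which pair with the same beta chain. The RefSeq table of build GRCm38.p6 gives 300 bases for each start (250 before and 50 after it), and held 25 promoters of 22 members outside the regions not printed here. Capitals mark copies of 5 motifs read on both strands, so that CCGCCC and CTTCCTC are copies on the other strand. The GC box was searched as GGGCGG. The TATA box was searched as TATAAA. The motif of PU.1, a transcription factor of myeloid cells, was searched as GAGGAAG. The AP-1 motif was searched as TGANTCA. The E-box of Snail and Zeb repressors was searched as CACCTG. No copies overlap in the sequences printed.
Itgav (chr2:83724147-83724446, plus strand): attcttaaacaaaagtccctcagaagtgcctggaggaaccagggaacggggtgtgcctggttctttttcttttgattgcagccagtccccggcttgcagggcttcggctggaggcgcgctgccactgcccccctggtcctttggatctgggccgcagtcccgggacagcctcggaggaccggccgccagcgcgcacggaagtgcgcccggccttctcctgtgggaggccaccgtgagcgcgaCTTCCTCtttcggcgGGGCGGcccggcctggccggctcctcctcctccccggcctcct
Itgb5 (chr16:33829415-33829714, plus strand): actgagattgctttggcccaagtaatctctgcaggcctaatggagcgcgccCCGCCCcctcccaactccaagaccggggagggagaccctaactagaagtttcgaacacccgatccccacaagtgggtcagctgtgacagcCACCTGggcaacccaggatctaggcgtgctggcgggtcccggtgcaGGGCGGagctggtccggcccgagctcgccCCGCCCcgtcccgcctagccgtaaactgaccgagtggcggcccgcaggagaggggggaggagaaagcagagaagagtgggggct
Itgb6 (chr2:60722554-60722853, minus strand): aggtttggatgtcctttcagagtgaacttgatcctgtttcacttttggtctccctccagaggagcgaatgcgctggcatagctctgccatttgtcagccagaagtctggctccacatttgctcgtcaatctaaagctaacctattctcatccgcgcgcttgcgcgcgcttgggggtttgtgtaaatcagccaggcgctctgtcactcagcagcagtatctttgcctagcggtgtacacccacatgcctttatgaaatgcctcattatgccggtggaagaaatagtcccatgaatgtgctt
Itgb6 (chr2:60673644-60673943, minus strand): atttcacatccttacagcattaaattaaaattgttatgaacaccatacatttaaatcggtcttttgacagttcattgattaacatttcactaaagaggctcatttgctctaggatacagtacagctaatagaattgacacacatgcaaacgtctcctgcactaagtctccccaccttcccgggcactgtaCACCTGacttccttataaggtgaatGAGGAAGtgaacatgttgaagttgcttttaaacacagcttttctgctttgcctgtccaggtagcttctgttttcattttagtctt
Itgb8 (chr12:119238227-119238526, minus strand): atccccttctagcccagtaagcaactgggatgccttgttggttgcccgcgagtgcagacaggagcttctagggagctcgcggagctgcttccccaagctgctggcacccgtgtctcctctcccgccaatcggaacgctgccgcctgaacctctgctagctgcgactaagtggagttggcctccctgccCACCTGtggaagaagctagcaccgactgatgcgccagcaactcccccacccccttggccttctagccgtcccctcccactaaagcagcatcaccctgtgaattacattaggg
Itgam (chr7:128062390-128062689, plus strand): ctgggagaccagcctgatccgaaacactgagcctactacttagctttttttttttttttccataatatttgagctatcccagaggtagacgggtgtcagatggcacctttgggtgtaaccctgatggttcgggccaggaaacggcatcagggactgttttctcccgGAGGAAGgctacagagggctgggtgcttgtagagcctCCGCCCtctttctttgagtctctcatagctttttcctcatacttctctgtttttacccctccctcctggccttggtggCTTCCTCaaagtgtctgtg
Itgax (chr7:128129300-128129599, plus strand): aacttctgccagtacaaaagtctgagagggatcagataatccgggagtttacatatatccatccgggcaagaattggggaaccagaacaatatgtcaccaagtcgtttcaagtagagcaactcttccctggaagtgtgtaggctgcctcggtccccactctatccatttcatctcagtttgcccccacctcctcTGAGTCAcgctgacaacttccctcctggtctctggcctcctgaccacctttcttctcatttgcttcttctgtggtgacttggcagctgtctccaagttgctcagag
The GC box was in 48% of the 25 promoters, against 35.7% of all 32851 promoters of the table. The PU.1 motif was in 32%, against 13.6%, the E-box in 32%, against 20.2%, and the AP-1 motif in 12%, against 7.81%. The TATA box was in 0 of 25, against 13.6%. Itgam held the PU.1 motif at 2 places and Itgax at none, Itgb5 held the GC box at 3 places, and Itgb8 held 1 E-box. The upstream start of Itgb6 held none of the 5 motifs, and its other start held 1 PU.1 motif and 1 E-box. These matches describe the letters alone.

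The tumors differed from the wild-type luminal cells in 3 of the 35 members by limma's test with Benjamini-Hochberg adjustment over all genes. Itgav, the alpha chain of the vitronectin receptors, fell to 6.57 ± 0.49 in tumors, against 8.57 ± 0.28 in wild-type cells (log2 RMA values, mean ± SD, n = 3 each; limma adjusted p of 0.0256). Itgb5, one of its beta chains, rose by 1.21 ± 0.21 log2 units (SE; limma adjusted p of 0.038), and the laminin chain Lama4, known from vessels and mesenchyme, rose by 2.46 ± 0.45 (limma adjusted p of 0.0415). Of all 22180 genes, 3.91% passed this test, 2.52% higher and 1.39% lower in tumors, and of the 7726 genes with a mean of at least 5 it was 7.14%. The 3 members that passed were 8.57% of 35, and 16.7% of the 18 members that bright, and no test of the family as a whole was made. At an unadjusted p under 0.05 in limma stood 21 members, or 60%, against 26.4% of all genes. Among those with a mean of at least 5 it was 10 of 18 members, against 2644 of the 7726 genes.

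Large differences were common among the members whether or not they passed. A difference of at least 1 log2 unit was reached by 15 of 35 (42.9%), against 14.5% of all genes, and by 8 of the 18 members with a mean of at least 5 (44.4%), against 26.8% of all genes that bright. The groups did not overlap for 20 of 35 (57.1%), against 36.4% of all genes. Of the members, 13 (37.1%) were higher in tumors without overlap, against 14% of all genes, and 7 (20%) were lower, against 22.4%. These shares were not matched for brightness. With a mean of at least 5, the groups did not overlap for 9 of 18 members (50%), against 34.1% of all genes that bright. Of those 18 members, 6 were higher and 3 lower without overlap, against 1892 and 745 of the 7726 genes. The mean was higher in tumors for 23 members (65.7%), against 41.7% of all genes, and the median difference was 0.41, against -0.12. Among genes with a mean of at least 5, 12 of 18 members and 5033 of all 7726 had the higher mean in tumors. The medians there were close, at 0.336 for those members and 0.32 for all genes that bright. With the arrays scaled otherwise, as described at the end, 20 (quantile), 21 (loess) or 15 (housekeeping) of the 35 members had the higher mean in tumors. The median of the 35 was then 0.190, 0.213 or -0.215. The members also spread more between tumors: their median SD was 0.54 among tumors and 0.26 among wild-type cells, where all genes had 0.28 among tumors and 0.27 among wild-type cells. The SD was larger in tumors for 29 of 35 members (82.9%) and for 51.5% of all genes. This comparison was not matched for brightness: 18 of 35 members, but 7726 of 22180 genes, had a mean of at least 5.

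**Figure D1:**
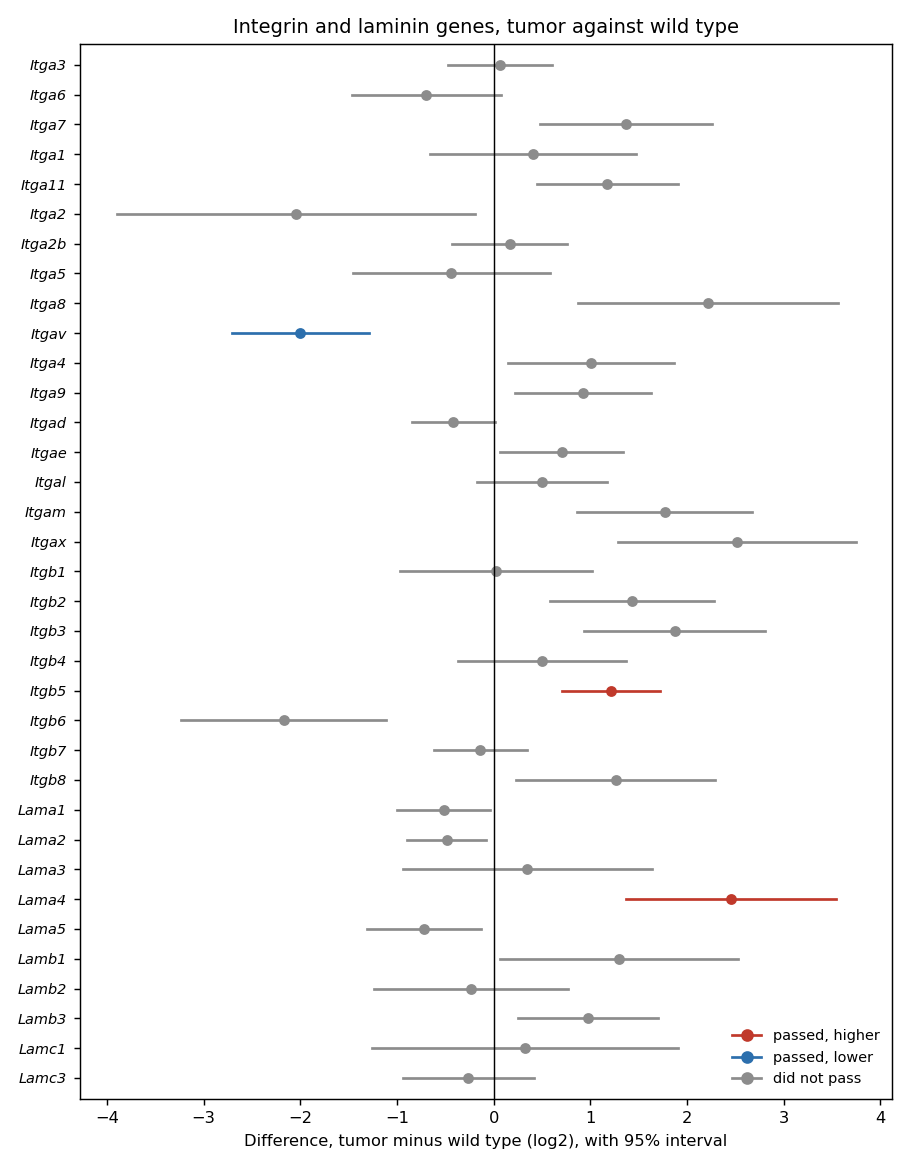
Differences of the 35 members (log2, tumor minus wild type; dots) with 95% intervals from limma (bars), in the order of their roles. Itgb5 and Lama4 lie to the right with adjusted p under 0.05, Itgav lies to the left, and the wide bar of Itga2 reaches from -3.90 to -0.19.

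Values near background limit the size of some differences. The mark used here is the 95th percentile, per array, of 1105 genes for olfactory receptors, which are silent in most tissues. It lay between 3.24 and 3.45 on tumor arrays and between 3.70 and 3.86 on wild-type arrays. Of the 35 members, 19 lay above it on all 6 arrays, 16 lay under it on at least 1, and Itgad lay under it on all. Itgad, Lama1 and Lama2, which were lower in tumors without overlap, lay under it on all 3 tumor arrays. Of the 3 that passed, Lama4 lay under it on 1 wild-type array, and Itgav and Itgb5 on none. In bulk RNA, fewer cells of a type and less RNA per cell cannot be told apart. Of the targeted genes, Brca1 measured 4.10, 3.74 and 3.79 in the tumors, against 2.81, 2.99 and 2.99 in wild-type cells, which all lay under the background mark, so the deposited values show no loss of Brca1 signal in the tumors labelled null for it: it rose by 0.94 (limma adjusted p of 0.044). Whether its probe set lies in the deleted part is not given in the sources used here, so this does not check the label, and Trp53 was not analysed here. The luminal keratin Krt8 measured 9.41, 7.76 and 9.19 in the tumors, against 10.31, 11.08 and 11.12 in wild-type cells. Of 14 luminal genes, 12 had lower means in tumors, 9 of them without overlap, with a list median of -1.67; 3 fell (Esr1, Pgr and Cd24a) and 2 rose (Elf5 and Kit) in limma's test. Genes of other cell types were also measured on both sides: the fibroblast proteoglycan Dcn at 7.11 to 9.16 in tumors and 10.10 to 11.11 in wild-type cells (the other 9 of 10 fibroblast genes had higher means in tumors, none passed in limma, 3 of the 10 had an unadjusted p under 0.05, and the list median was 0.81), the endothelial cadherin Cdh5 at 5.42 to 7.42 in tumors and 5.54 to 7.34 in wild-type cells, and the basal keratin Krt14 at 7.63 to 11.64 in tumors and 8.48 to 9.27 in wild-type cells.

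Among Itgav and its partners, the alpha chain and Itgb6 were lower in the tumors while Itgb3, Itgb5 and Itgb8 were higher, although only Itgav and Itgb5 passed. Itgav measured 6.01, 6.95 and 6.74 in tumors 23, 24 and 25, against 8.70, 8.24 and 8.76 in wild-type replicates 1, 2 and 4. Every tumor lay at least 1 log2 unit under every wild-type array, and the fitted difference was 4.01-fold, with a 95% interval of -2.71 to -1.29 on the log2 scale. A dimmer probe set naming Itgav, at 1.95 to 2.23 in tumors and 2.34 to 2.62 in wild-type cells, lay under the background mark on all 6 arrays. It differed by -0.43 and did not pass (limma adjusted p of 0.179). With both probe sets averaged, Itgav fell by 1.22 and passed (limma adjusted p of 0.0256). That average mixes in the probe set under the mark and is no separate check of the difference. Itgb5 measured 8.16, 8.14 and 7.71 in tumors 23, 24 and 25, against 6.83, 6.54 and 6.99 in wild-type cells. Its tumors were close together, with an SD of 0.25 beside 0.23 in wild-type cells, and the groups did not overlap.

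Itgb6 encodes the epithelial partner of Itgav, known for the activation of latent TGF-beta. It measured 3.53, 4.35 and 2.78 in the tumors, against 5.56, 5.34 and 6.27 in wild-type replicates 1, 2 and 4. Tumor 25 lay under the background mark. The difference of -2.17 ± 0.44 (SE) missed the threshold, with a limma adjusted p of 0.0515, and without tumor 24 the adjusted p was 0.0271, against 0.0964 to 0.136 without any other array. Itgb3, the beta chain shared by Itgav and the platelet chain Itga2b, measured 6.59, 5.69 and 7.28 in the tumors, against 4.71, 4.66 and 4.56 in wild-type cells. All tumors lay above the narrow wild-type range, and the difference was 1.87 ± 0.39 (SE; limma adjusted p of 0.0543, 0.0190 without tumor 24, and 0.0871 to 0.143 without any other array). Its platelet partner Itga2b measured 4.40, 4.44 and 5.18 in the tumors, against 4.42, 4.55 and 4.56 in wild-type cells, so the groups overlapped. The 6 measured genes of the platelet and megakaryocyte list had list means of 3.32 to 3.81 in tumors and 3.38 to 3.66 in wild-type cells, and 0 of them passed (limma; 0 also at an unadjusted p under 0.05).

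Itgb8, another TGF-beta-activating partner of Itgav, measured 6.37, 6.21 and 6.66 in the tumors, against 5.88, 4.19 and 5.38 in wild-type cells. The tumors lay above all wild-type arrays, but wild-type cells spread by 0.87 (SD) and the difference of 1.26 ± 0.43 (SE) did not pass (limma adjusted p of 0.139). Without wild-type replicate 2 it was 0.78. Itga8, which pairs with Itgb1 and binds nephronectin, measured 5.95, 5.84 and 7.77 in the tumors, against 4.82, 3.79 and 4.29 in wild-type cells. Wild-type replicate 2 lay under the background mark. The Itga8 difference of 2.22 ± 0.56 (SE) was among the largest of the members without passing (limma adjusted p of 0.081). The fibronectin receptor chain Itga5 measured 5.28 to 5.94 in tumors and 5.46 to 6.99 in wild-type cells, with a difference of -0.44 and overlapping groups. Its ligand fibronectin, Fn1, measured 10.04, 10.17 and 11.70 in the tumors, against 7.17, 8.03 and 6.53 in wild-type cells.

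**Figure D2:**
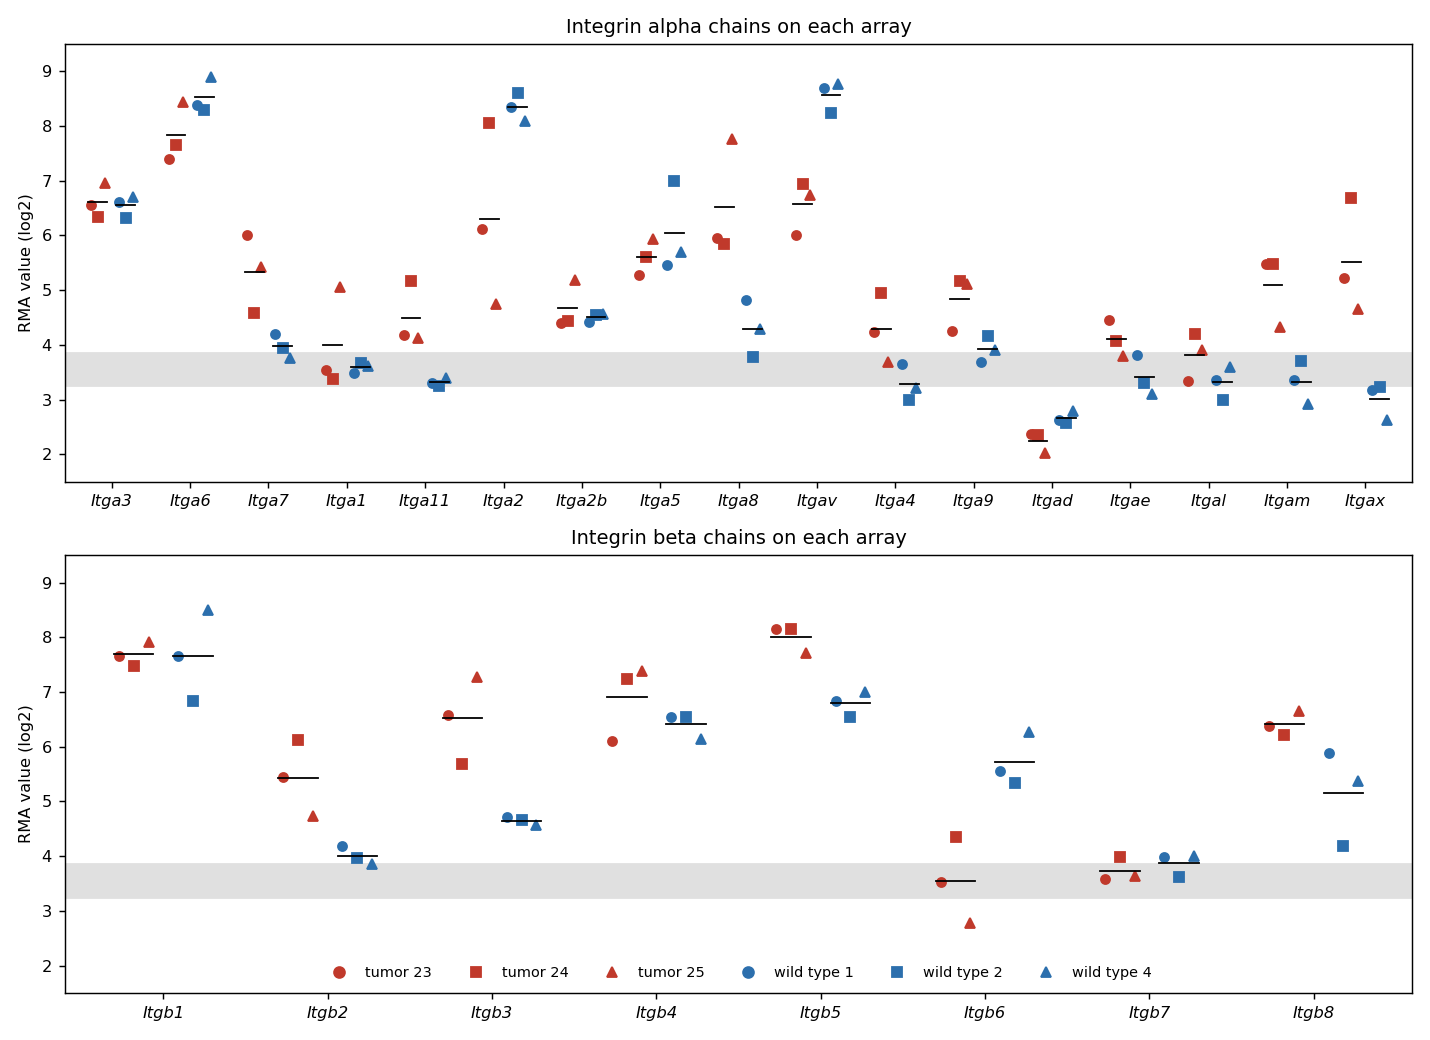
Log2 RMA values of the 25 integrin genes on each array, tumors (red) left of wild-type cells (blue), with group means (black lines) and the range of the background mark over arrays (grey band). Itgav and Itgb6 lie lower in all tumors, and Itgb3, Itgb5, Itgb8, Itgam and Itgax lie higher in all tumors.

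None of the laminin receptor chains passed, and Itga7 alone had groups that did not overlap. Itgb1, the common beta chain, measured 7.66, 7.48 and 7.92 in the tumors, against 7.66, 6.83 and 8.50 in wild-type cells. Wild-type replicates 2 and 4 enclosed all tumors, and the difference was 0.022 ± 0.42 (SE) with an interval of -0.97 to 1.02 (limma adjusted p of 0.976). Itga6, the laminin receptor chain of epithelial cells, measured 7.40, 7.66 and 8.44 in the tumors, against 8.38, 8.30 and 8.90 in wild-type cells. Tumor 25 lay within the wild-type range, and the difference of -0.70 ± 0.32 (SE; interval -1.46 to 0.072) did not pass (limma adjusted p of 0.22). Itgb4, its hemidesmosome partner, measured 6.11, 7.23 and 7.39 in the tumors, against 6.54, 6.55 and 6.14 in wild-type cells, so tumor 23 lay lowest and the other tumors highest of all arrays. Its difference was 0.50 ± 0.36 (SE; limma adjusted p of 0.389), and it was 0.90 without tumor 23 and 0.26 without tumor 25. Itga3, which pairs with Itgb1, measured 6.34 to 6.96 in tumors and 6.32 to 6.71 in wild-type cells, a difference of 0.067 with an interval of -0.47 to 0.60.

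Itga7 is the laminin receptor chain of muscle. It measured 6.01, 4.58 and 5.43 in the tumors, against 4.21, 3.94 and 3.77 in wild-type cells, and the groups did not overlap. The difference was 1.37 ± 0.37 (SE; limma adjusted p of 0.0922, 0.0284 without tumor 24, and 0.169 to 0.205 without any other array). The 12 skeletal muscle genes averaged 8.08 (tumor 23), 3.44 (tumor 24) and 5.48 (tumor 25), and 3.35 to 3.57 on the wild-type arrays. The order of the tumors was the same for Itga7 and for this mean, and 0 of the 12 genes passed (limma; 2 at an unadjusted p under 0.05); their part in the Itga7 values was not tested.

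Of the collagen receptor chains, Itga2 had a lower and Itga11 a higher mean in tumors, and neither passed. Itga2, a collagen receptor chain of luminal cells and platelets, measured 6.11, 8.06 and 4.74 in the tumors, against 8.35, 8.61 and 8.09 in wild-type cells. Tumor 24 lay just under the wild-type range and tumor 25 far below it, and the difference of -2.05 ± 0.77 (SE) had a limma adjusted p of 0.163. Without tumor 24 it was -2.92, with a limma adjusted p of 0.0272, and without tumor 25 it was -1.26, with one of 0.29; without each of the other arrays the adjusted p was 0.264 to 0.306. Itga11, a fibrillar collagen receptor chain of fibroblasts, measured 4.18, 5.17 and 4.13 in the tumors, against 3.30, 3.25 and 3.40 in wild-type cells, which all lay under the background mark. The difference was 1.18 ± 0.30 (SE; limma adjusted p of 0.0848). The 10 fibroblast genes had list means of 6.35, 6.87 and 5.42 for tumors 23, 24 and 25 and of 5.37 to 5.90 for wild-type cells, and tumor 24 was highest for both; their part in Itga11 was not tested. Itga1 was at 5.06 in tumor 25 and between 3.38 and 3.68 on the other 5 arrays.

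Leukocyte chains had some of the largest differences among the members, and none passed over all genes. Itgax, known as CD11c on dendritic cells and macrophages, measured 5.23, 6.68 and 4.66 in the tumors, against 3.17, 3.22 and 2.63 in wild-type cells. Every wild-type array lay below the background mark, so the difference of 2.51 ± 0.51 (SE; limma adjusted p of 0.052, 0.0285 without tumor 24, and 0.0518 to 0.143 without any other array) has no settled size. Itgam, known as CD11b on myeloid cells, measured 5.48, 5.47 and 4.33 in the tumors, against 3.36, 3.71 and 2.92 in wild-type cells, also under the mark. Its difference was 1.77 ± 0.38 (SE; limma adjusted p of 0.0573, 0.0386 without tumor 25, and 0.0867 to 0.148 without any other array). Their common partner Itgb2 measured 5.45, 6.12 and 4.73 in the tumors, against 4.19, 3.96 and 3.85 in wild-type cells. Tumor 25 was the lowest tumor for all 3 chains, and every tumor lay above every wild-type array; the Itgb2 difference of 1.43 ± 0.35 (SE) had a limma adjusted p of 0.0774, of 0.0477 without tumor 25, and of 0.0827 to 0.180 without any other array.

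Most of the macrophage genes listed were higher in the same tumors. Of 12 macrophage genes 7 rose (Adgre1, C1qa, C1qb, C1qc, Cd68, Csf1r and Msr1) and none fell (limma). The mean was higher in tumors for 10 of them. Marco (-0.53) and Cd163 (-0.13) were lower in tumors without overlap, and neither passed. The 12 genes averaged 5.80 (tumor 23), 5.76 (tumor 24) and 5.34 (tumor 25), and 3.74 to 4.16 on the wild-type arrays. Csf1r, the growth factor receptor that defines macrophages, measured 6.79, 6.58 and 6.33 in the tumors, against 4.01, 4.37 and 3.30 in wild-type cells. Of 7 pan-leukocyte genes Vav1 alone passed, and their mean was 6.21, 6.16 and 5.04 in the tumors, against 4.31 to 5.06 in wild-type cells. Among 9 neutrophil, 11 T and NK cell, 5 B cell and 5 dendritic cell genes, 0 passed in limma (0 B cell and 0 dendritic cell genes, 3 neutrophil and 2 T and NK cell genes at an unadjusted p under 0.05). The part of these cells in the Itgam, Itgax and Itgb2 values was not tested.

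**Figure D3:**
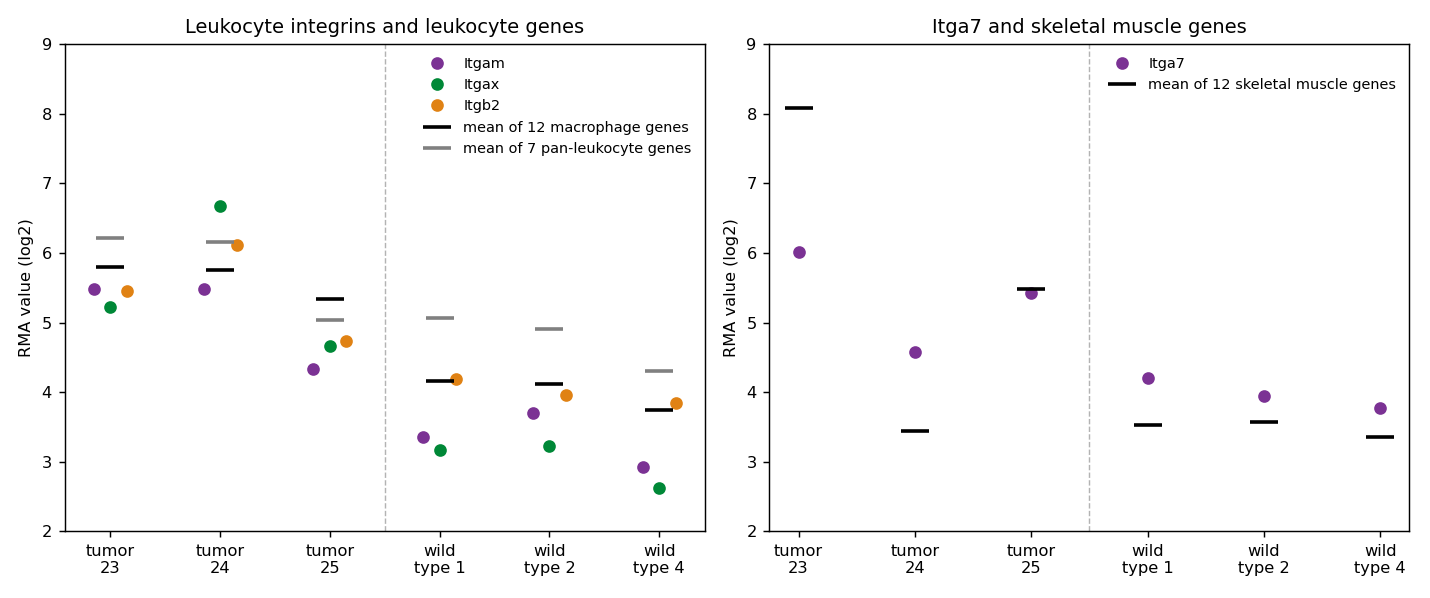
Log2 RMA values on each array, tumors left of the dashed line and wild-type cells right of it. Left, Itgam, Itgax and Itgb2 (dots) beside the means of the macrophage and pan-leukocyte genes (bars), each of which is lower on every wild-type array than in tumors 23 and 24; right, Itga7 beside the mean of the skeletal muscle genes, both highest in tumor 23.

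The other leukocyte chains, Itga4 and Itga9 did not pass. Itgal, the chain of LFA-1, measured 3.35 to 4.20 in tumors and 2.99 to 3.60 in wild-type cells, and Itgad 2.03 to 2.37 in tumors and 2.57 to 2.79 in wild-type cells. The mucosal T cell chain Itgae measured 3.81 to 4.46 in tumors and 3.11 to 3.81 in wild-type cells, and its partner Itgb7 3.57 to 3.98 in tumors and 3.62 to 3.99 in wild-type cells. Itga4, which binds fibronectin and Vcam1, measured 4.24, 4.95 and 3.68 in the tumors, against 3.66, 2.99 and 3.22 in wild-type cells, and the related Itga9 4.26, 5.17 and 5.10 in the tumors, against 3.69, 4.16 and 3.91 in wild-type cells. Neither chain overlapped between the groups, and neither passed. The difference was 1.00 ± 0.36 for Itga4 and 0.92 ± 0.29 for Itga9 (SE; limma adjusted p of 0.148 and 0.122). All 3 wild-type arrays of Itga4 and 1 of Itga9 lay under the background mark, so the size for Itga4 is not settled.

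Of the laminin chains, Lama4 rose, the other 9 did not pass, and 5 had higher and 5 lower means in tumors. Lama4 measured 5.81, 6.39 and 7.51 in the tumors, against 4.18, 4.47 and 3.69 in wild-type cells. Each tumor lay more than 1 log2 unit above the highest wild-type array, and the fitted difference was 5.49-fold with an interval of 1.37 to 3.54 on the log2 scale. Among 8 pericyte and smooth muscle genes Pdgfrb, a receptor of pericytes and fibroblasts, rose by 2.56 and Myh11, a smooth muscle myosin, fell by 1.40 (limma), with list means of 5.33, 4.58 and 4.97 in the tumors, against 4.61, 4.53 and 4.44 in wild-type cells; their part in Lama4 was not tested. Lamb1 and Lamc1, chains that commonly join Lama4 or Lama5, also had their highest value in tumor 25. Lamb1 measured 5.58, 6.55 and 7.58 in the tumors, against 5.01, 5.78 and 5.04 in wild-type cells, with overlap through tumor 23 and a difference of 1.29 ± 0.51 (SE; limma adjusted p of 0.176), which was 0.79 without tumor 25. Lamc1 measured 5.95, 6.21 and 8.06 in the tumors, against 5.44, 7.003 and 6.80 in wild-type cells, so that tumor 25 alone lay above the wild-type range. Its difference was 0.32 ± 0.66 (SE; limma adjusted p of 0.754).

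Lama5, the main alpha chain of epithelial basement membranes, measured 7.05, 7.75 and 7.67 in the tumors, against 8.19, 8.42 and 8.01 in wild-type cells. The groups did not overlap, and the difference of -0.72 ± 0.25 (SE) did not pass (limma adjusted p of 0.139). Lama3, which joins Lamb3 in the laminin of hemidesmosomes, measured 5.13, 7.20 and 5.44 in the tumors, against 5.44, 5.87 and 5.42 in wild-type cells. Tumor 24 stood alone above the wild-type range, and the difference was 0.35 ± 0.54 (SE; limma adjusted p of 0.675). Lamb3 measured 6.21, 6.72 and 6.78 in the tumors, against 5.52, 6.12 and 5.15 in wild-type cells; all tumors lay above, and the difference of 0.97 ± 0.30 (SE) did not pass (limma adjusted p of 0.116). Lamb2 measured 5.53 to 7.18 in tumors and 6.25 to 6.75 in wild-type cells. Lama1, Lama2 and Lamc3 measured between 3.01 and 3.94 in tumors and between 3.38 and 4.07 in wild-type cells, close to the background mark.

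**Figure D4:**
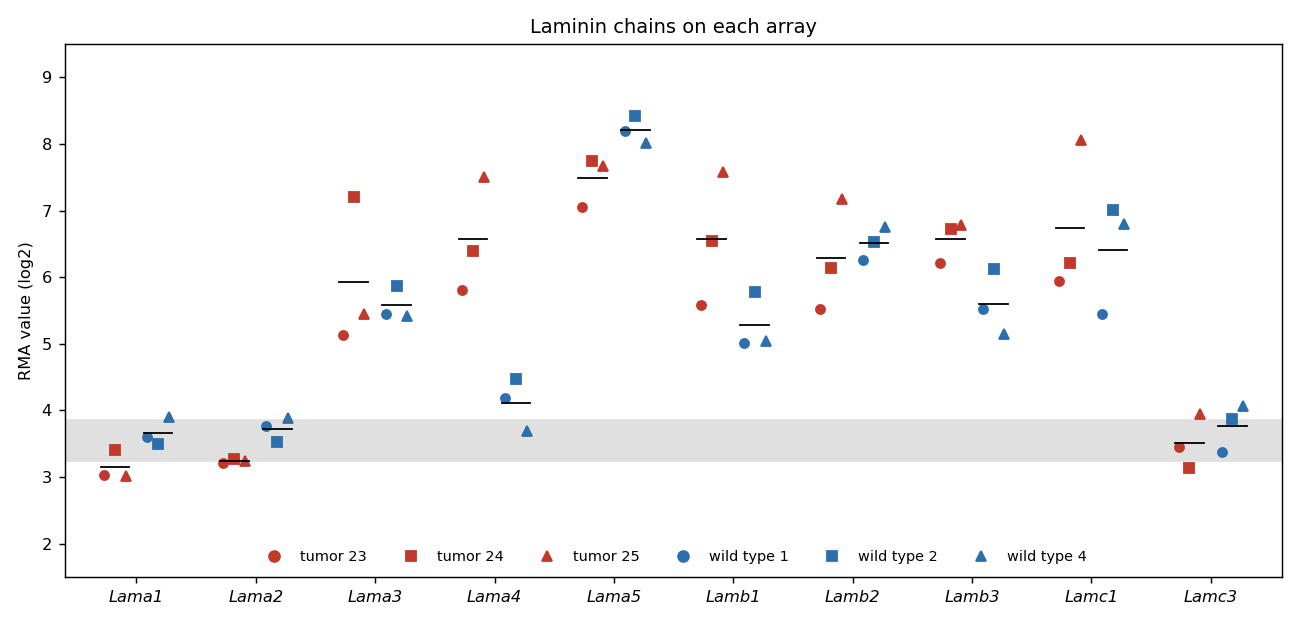
Log2 RMA values of the 10 laminin genes on each array, tumors (red) left of wild-type cells (blue), with group means (black lines) and the range of the background mark (grey band). Lama4 lies higher in all tumors, Lama3 is high in tumor 24 alone, and Lamb1, Lamb2 and Lamc1 are highest in tumor 25.

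The tumor with the highest value differed between chains, as read from 1 array per tumor. Tumor 25 was the highest tumor for 16 members and for 6 of the 10 laminins, tumor 24 for 14 members and 4 laminins, and tumor 23 for 5 members and no laminin. Of all genes, 36% were highest in tumor 25, 32.3% peaked in tumor 24 and 31.8% did so in tumor 23. Taken minus the mean of the wild-type arrays, the 10 laminins had a median of 0.42 for tumor 25, -0.23 for tumor 24 and -0.46 for tumor 23. Tumor 24, with the highest Lama3, Itga2 and Itga11, was also the highest tumor for the basal factor Trp63, at 6.93 beside 3.72 (tumor 23) and 4.50 (tumor 25), and for the hemidesmosome collagen Col17a1, at 6.15 beside 4.04 and 3.94. The wild-type arrays held Trp63 at 3.41 to 4.14 and Col17a1 at 4.73 to 4.83. The 11 measured basal and myoepithelial genes had list means of 6.04, 6.38 and 5.73 in tumors 23, 24 and 25. On wild-type replicates 1, 2 and 4 those means were 6.02, 5.49 and 6.11. The list median difference between the groups was 0.01, and 1 gene fell and 0 rose (limma). In tumor 25, highest for Lama4, Lamb1, Lamb2 and Lamc1, the 11 endothelial genes had a list mean of 5.21, above 4.43 for tumor 23 and 4.34 for tumor 24; the wild-type arrays had 4.38, 4.90 and 5. Of those 11 endothelial genes Vwf fell by 1.01 and none rose (limma), and their part in the laminin values was not tested. No test was made between single tumors.

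Partners of the members were read from 4 lists chosen for adhesion. Of 23 measured genes of the integrin adhesion complex, 5 rose and 1 fell, with a list median of 0.30. That was 26.1%, against 3.91% of all genes and 7.14% of all genes with a mean of at least 5. Parvg, an actin-binding parvin of blood cells, rose by 2.59 ± 0.33 (SE; limma adjusted p of 0.018), measuring 6.86, 5.67 and 5.84 in the tumors, against 3.47, 3.59 and 3.55 in wild-type cells, which lay under the background mark. Tns3, a tensin, rose by 1.84, the talin Tln2 by 1.68, the leukocyte kindlin Fermt3 by 1.30 (also under the mark on all wild-type arrays) and the filamin Flna by 1.12. Bcar1, the adaptor p130Cas, measured 7.78, 7.56 and 7.57 in the tumors, against 9.56, 9.18 and 9.97 in wild-type cells, and fell by 1.93 ± 0.24 (SE; limma adjusted p of 0.0176). Parvg and Fermt3 are genes of blood cells, and 7 of the 12 macrophage genes above rose in the same tumors. The part of those cells was not tested.

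Of the 8 hemidesmosome and tetraspanin partners, the tetraspanin Cd82 fell by 1.41 ± 0.21 (SE; limma adjusted p of 0.0259) and 7 did not pass. The hemidesmosome linker Plec measured 4.66, 5.38 and 5.06 in the tumors, against 6.01, 5.93 and 6.49 in wild-type cells, without overlap and without passing (limma adjusted p of 0.068). Of 21 basement membrane genes and other laminin binders 0 passed in limma (7 at an unadjusted p under 0.05), with a list median of 0.37, and the largest differences were those of Smoc1 (1.82; limma adjusted p of 0.142) and the nidogen Nid2 (1.42; 0.11), both highest in tumor 25; Nid2 lay under the mark on all wild-type arrays. Of 20 measured integrin ligands outside the basement membrane, Fn1 rose by 3.39 and Madcam1, a ligand of the Itga4 and Itgb7 pair, fell by 0.96 (limma adjusted p of 0.0332 and 0.0479).

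The split of calls depended on how the arrays were scaled. Of all calls, 64.5% were higher in tumors as deposited, 44.3% with the arrays quantile-normalized again, 52.3% with cyclic loess and 7.28% with each array centred on 13 housekeeping genes. Those 13 genes had means of 8.57, 8.09 and 8.68 in the tumors, against 7.67, 7.97 and 7.84 in wild-type cells. Itgav passed downward under all 4, with differences of -2.27 (quantile), -2.24 (loess) and -2.62 (housekeeping) beside the -2.00 as deposited. Itgb6 passed downward under these 3 as well, at limma adjusted p of 0.0306, 0.0439 and 0.0115. Itgb5 lost its call under all 3, with differences of 0.95 (adjusted p of 0.105), 0.97 (0.0985) and 0.59 (0.179), and Lama4 under the quantile and loess scalings, where its adjusted p was 0.0501 and, rounded, 0.05. With the centring the median difference was -0.74 for all genes and -0.22 for the members, and 9 members passed downward and 4 upward. It also left smaller differences, none of them passing, of 0.75 for Itga7, 0.56 for Itga11, 0.385 for Itga4, 0.30 for Itga9, 1.15 for Itgam, 0.81 for Itgb2, 0.64 for Itgb8, 0.67 for Lamb1 and 0.35 for Lamb3. Itga6 (-1.32) and Lama5 (-1.34) passed downward with it. Leaving out single arrays ended these calls as well, with fewer degrees of freedom: Itgav kept its call without tumor 24 alone (adjusted p of 0.0256, and 0.0548 to 0.0967 without any other array), while Itgb5 (0.0535 to 0.108) and Lama4 (0.0538 to 0.124) passed in 0 of 6 sets.

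**Figure D5:**
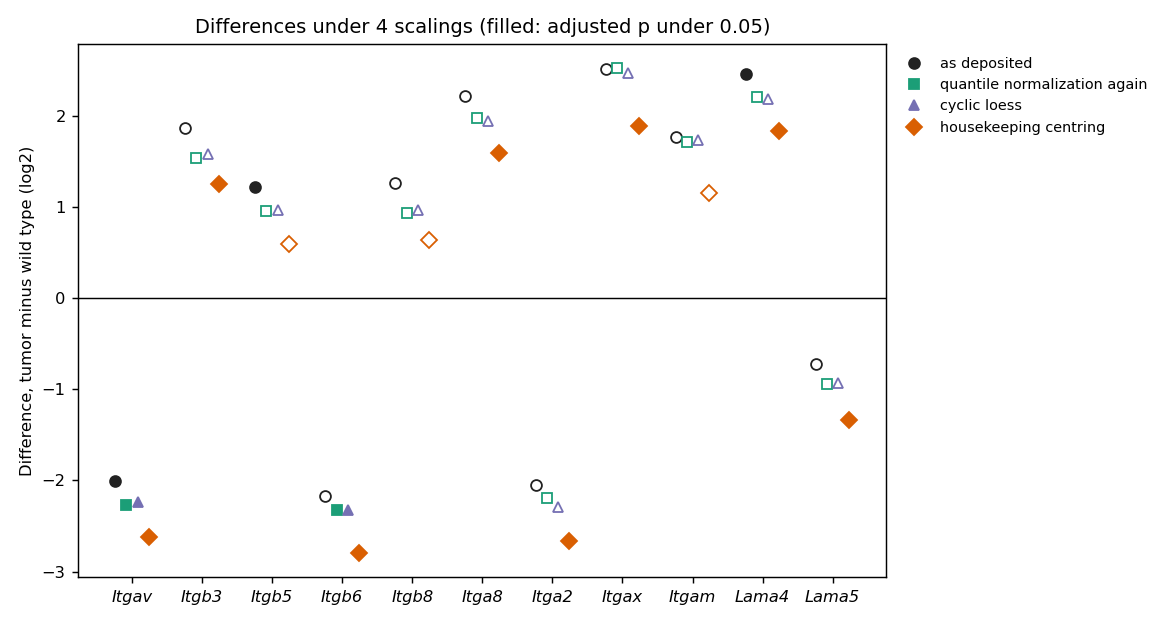
Difference of 11 members (log2, tumor minus wild type) under 4 scalings, with filled symbols where the limma adjusted p is under 0.05. Itgav is filled under all 4 and Itgb6 under the 3 that rescale the deposited values, and each member keeps its sign.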

How the data were processed

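Each array gave 1 log2 value per probe set, as deposited. Total RNA was amplified by the NuGEN Ovation system and biotin-labelled, per the labels. RMA and oligo are named in the submitters' processing notes, without versions. RMA brings arrays towards a common distribution and compresses differences near background. The deposited arrays still differed in spread: the SD over probe sets was 2.131, 2.1 and 2.156 in tumors 23, 24 and 25. In wild-type replicates 1, 2 and 4 it was 1.995, 1.956 and 1.999. Probe set medians were 3.384, 3.565 and 3.246 in the tumors, against 3.592, 3.543 and 3.506 in wild-type cells. The part of this in the differences was not tested. No scanner file was used, so detection calls and scan batches were not analysed, and precision rests on 3 arrays a group. Of 41345 probe sets, 23521 named 1 gene in the platform annotation, 1814 several and 16010 none. The probe set with the highest mean stood for each of 22180 genes; of the members only Itgav had more than 1. Symbols were updated through RefSeq (GRCm38.p6), which matched 23328 of the single-gene probe sets; 193 kept the platform's symbol.

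Tumors were compared with wild-type cells in limma 3.58.1 (lmFit and eBayes, R 4.3.3), two-sided, without covariates or a filter, with Benjamini-Hochberg adjustment over all genes and a threshold of 0.05. The fit was tested on simulated data. Per-array values are given for members that passed, for those with a difference of at least 1 and no overlap, and for a set of chains of epithelial receptors and laminins. The members and lists were chosen with earlier results of these data known. Alternatives were filters on dim genes, probe set averages, single probe sets, 3 scalings, a trended robust prior, array weights and leaving out each array.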

Additional observations from a re-analysis of the deposited data

How the results depend on the processing

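The 867 calls over all genes became 7523 with housekeeping centring and 1324 with array weights, and ranged from 72 (without wild-type replicate 4) to 1200 (without tumor 24) when single arrays were left out; they numbered 375 without tumor 25, 170 without wild-type replicate 2, 142 without tumor 23 and 138 without wild-type replicate 1. Of the members, 3 passed as reported (2 higher, 1 lower). The count was 5 (4 higher, 1 lower) when only genes averaging 5 or more were tested, 8 (6 and 2) for genes at or above the median gene, 13 (4 and 9) with housekeeping centring, 6 (4 and 2, without Itgb5, whose adjusted p was 0.0668) with the trended robust prior and 7 (5 and 2) with array weights, and 2 (0 higher and 2 lower) with either the quantile or the loess scaling. Leaving out single arrays gave 0 to 6 members, 0 to 3 higher and 0 to 3 lower: 6 without tumor 24, 2 (both higher) without tumor 25 and 0 in limma without any other array (14 to 17 members then at an unadjusted p under 0.05). The median difference of 0.405 became 0.190 with the quantile scaling, 0.213 with loess and -0.215 with housekeeping centring, and ranged from 0.259 to 0.721 over the left-out arrays, highest without tumor 23. When only genes averaging 5 or more were tested, limma's adjusted p fell for Lama4 (0.0415 to 0.0103) and rose for Itgb5 (0.038 to 0.0447). The causes of these changes were not tested. Averaging probe sets changed no call of the 35 members. Members that turned their sign did not pass in either fit. They were Itga2b (-0.086), Itga3 (-0.273) and Itgb1 (-0.227) with the quantile scaling, Itga3 (-0.223) and Itgb1 (-0.203) with loess, and Itgb1 (-0.124) with array weights. With housekeeping centring they were Itga1 (-0.215), Itga2b (-0.455), Itga3 (-0.554), Itgal (-0.122), Itgb1 (-0.598), Itgb4 (-0.120), Lama3 (-0.272) and Lamc1 (-0.296). Leaving out single arrays gave ranges across 0 for Itga1 (-0.129 to 0.714), Itga2b (-0.087 to 0.302), Itga3 (-0.105 to 0.207), Itga5 (-0.734 to 0.028), Itgb1 (-0.395 to 0.439), Lama3 (-0.290 to 0.744), Lamb2 (-0.678 to 0.147) and Lamc1 (-0.334 to 0.721). Signal near background limits the sizes given for Itgax, Itgam, Itga11, Itga4, Itgb6, Parvg, Fermt3 and Nid2. It also limits those of Itga8, Itga9 and Lama4, each under the mark on 1 wild-type array. No paired analysis was possible because the groups share no replicate number.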

Other observations

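The probe set that names Itgb4 together with B230344G16Rik, outside the single-gene rule, measured 3.72, 4.22 and 4.07 in tumors 23, 24 and 25, against 3.96, 3.93 and 4.44 in wild-type replicates 1, 2 and 4. The probe set that names Cerkl together with Itga4 measured 2.42, 2.39 and 2.96 in the tumors, against 2.71, 2.59 and 2.73 in wild-type cells. In both the groups overlapped, unlike in the Itga4 probe set reported above.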
